A study of Homo sapiens with 10 samples.

Results

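The autosomal coding genes switched on in DNMT1 KO cells were 79 of the 18961 protein-coding genes on chromosomes 1 to 22, out of 58884 genes counted. A gene was a member if its mean level over the HCT116 libraries was at most 2% of its mean over the DNMT1 KO libraries and if every DNMT1 KO library held at least 1 CPM (its counts scaled to a library total of 1e6). CD36, TXNIP, VIM and genes of the ZNF, ZFP, OAS, IFI, HOX, PCDH and COL name families were left out, which removed 7 of 86 genes that met the limits. The levels in both groups thus chose the members, so their difference between the groups is given here as a description, with no test.

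Poly(A) RNA was sequenced from HCT116, a human colorectal cancer cell line wild type for DNMT1 (6 libraries), and from DNMT1 KO, a derivative of that line (4 libraries), both grown in the same medium with no further treatment. DNMT1 KO cells lack exons of the gene and still make a shortened DNMT1 at a low level, so they are a hypomorph, and they are a single derivative line. The labels place replicate 1 of each group in batch 1, replicates 2 and 3 of each group in batch 2, DNMT1 KO replicate 4 in batch 3 and HCT116 replicates 7, 8 and 9 in batch 4. The study describes its libraries as independent cultures, so an SD given here is the spread between cultures of each line, over their batches. An SE belongs to a fitted log2 fold change and was derived from the test statistic of the fit.

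DNMT1 is the enzyme that copies DNA methylation onto the new strand after replication, chiefly at CpG dinucleotides. Methylation of a CpG-rich promoter is known to go with a silent gene, and germline, tissue-specific and tumour-silenced genes are well-known examples of genes that lose silencing when methylation is lost. Promoters with few CpG are less directly tied to methylation, and many of them belong to genes used by only a few tissues.

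The promoters of the 79 genes covered that whole range, from 0 to 45 CpG in a window of 300 bases (250 before the start and 50 after it). The 250 bases before the start are shown for 3 members from the middle and the CpG-poor end of the range, 5′ to 3′ on the gene's strand, with each CpG in capitals. They were read from hg38 at the start of the canonical transcript of GENCODE release 44. In the bases shown, SPARC (chr5:151686916-151687165, minus strand) has 7 CpG, BST2 (chr19:17405631-17405880, minus strand) has 2 and IL7R (chr5:35856641-35856890, plus strand) has 0.
SPARC: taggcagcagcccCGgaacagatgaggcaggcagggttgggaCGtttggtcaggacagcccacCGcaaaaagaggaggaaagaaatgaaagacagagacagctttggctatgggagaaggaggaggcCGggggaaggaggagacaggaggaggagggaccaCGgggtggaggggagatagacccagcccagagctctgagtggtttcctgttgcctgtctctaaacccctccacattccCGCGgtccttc
BST2: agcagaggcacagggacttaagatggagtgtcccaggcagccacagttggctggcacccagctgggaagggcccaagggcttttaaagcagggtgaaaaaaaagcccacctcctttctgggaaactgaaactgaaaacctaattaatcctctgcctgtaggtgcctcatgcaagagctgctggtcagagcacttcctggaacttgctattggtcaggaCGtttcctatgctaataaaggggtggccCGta
IL7R: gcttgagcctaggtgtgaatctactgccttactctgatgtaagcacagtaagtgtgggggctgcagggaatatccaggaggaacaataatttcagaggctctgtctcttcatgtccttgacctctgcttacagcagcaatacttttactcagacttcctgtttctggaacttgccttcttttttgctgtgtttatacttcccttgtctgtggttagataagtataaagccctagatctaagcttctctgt

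The HCT116 libraries held 35418732 to 85991812 counts each, and the DNMT1 KO libraries 26700853 to 55732013. DNMT1 itself was at 142 ± 54.2 CPM (SD, n = 6) in HCT116 and at 21.3 ± 4.35 CPM (SD, n = 4) in DNMT1 KO, and its ranges did not overlap. Of 14 markers of colon epithelial lines, 9 were at 1 CPM or more in every library of each group, whereas KRT20, a marker of differentiated colon epithelium, was at 0 counts in all of them. Among genes with 1 to 10 counts, 64.4 to 70.0% of the counts were even in 9 libraries and 39.9% in DNMT1 KO replicate 4. The part of this in the values was not tested.

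Summed over the 79 genes, the level was 17.3 to 24.6 CPM in the HCT116 libraries and 3590, 4256, 3756 and 3460 CPM in DNMT1 KO replicates 1 to 4. The means were 20.7 ± 2.80 (SD, n = 6) and 3766 ± 349 CPM (SD, n = 4). Few genes carried this sum. DHRS2 alone held 43.4% of the mean sum in DNMT1 KO, and DHRS2 and SPARC together 63.7%. The genes had a median DNMT1 KO level of 7.61 CPM (range 1.41 to 1633), with 4 genes above 100 CPM, 27 between 10 and 100 and 48 below 10. Per kilobase of counted exon their median was 1.77 CPM, against 6.91 in the 10950 coding autosomal genes that were at 1 CPM or more in every DNMT1 KO library. Most of the members were at low levels beside the genes in use in these cells. In bulk RNA, fewer cells expressing a gene and less RNA per cell cannot be told apart.

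In HCT116, 7 of the 79 genes had no count in any library, 5 had 1 to 3 counts over all 6 libraries and 29 had at most 10. At the other end, 9 genes had more than 100 counts over the HCT116 libraries and 22 had a count in every one. The lowest DNMT1 KO library lay above the highest HCT116 library for each of the 79 genes, as for 11.8% of all tested genes, but the rule had used these levels and nothing is read from this count. The narrowest gap was that of MYBPH, at 4.18-fold. Fitted across all 19279 tested genes with edgeR's quasi-likelihood test, the members had log2 fold changes from 5.22 to 11.40, with a median of 6.67, which was the same when the genes with no HCT116 count were set to their lower bound. All 79 passed the call for higher in DNMT1 KO (adjusted p under 0.05 and log2 fold change above 1), where 7.42% of all tested genes did, but the rule had used that contrast and nothing is read from this count.

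**Figure D1:**
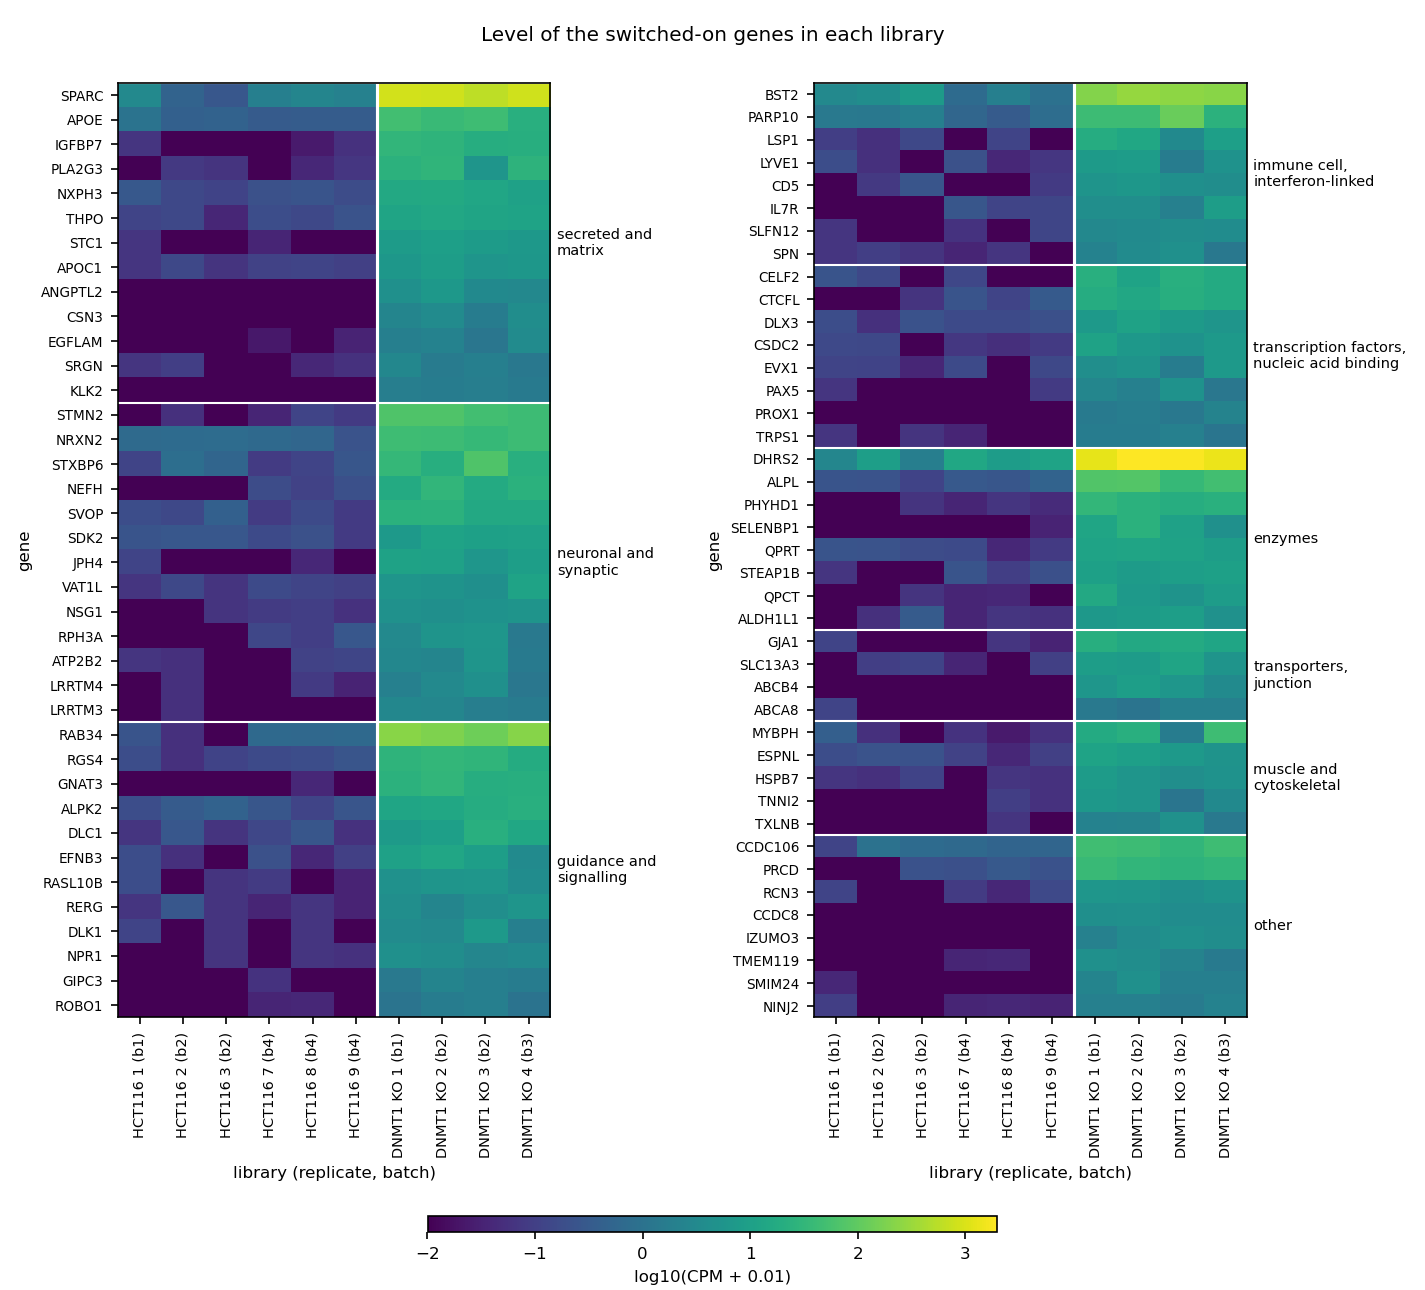
Level of each of the 79 genes (rows, grouped by role) in each library (columns, with replicate and batch) as log10(CPM + 0.01), where -2 is 0 counts. The 4 DNMT1 KO columns on the right of each panel are lighter than the 6 HCT116 columns in every row, which the rule had fixed. In 7 rows the level is 0 throughout HCT116.

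The largest group by role held 13 genes of secreted and matrix proteins. SPARC, a collagen-binding matrix protein often methylated in colorectal tumours, was at 854, 807, 589.7 and 813 CPM in DNMT1 KO replicates 1 to 4. In HCT116 it was at 0.263 to 3.11 CPM (median 2.02). The log2 fold change was 8.54 ± 0.62 SE, and 9.63 with batch as a term in batches 1 and 2. Its level per kilobase in DNMT1 KO, 165 CPM, came after those of BST2 and DHRS2. IGFBP7, a secreted binder of insulin-like growth factors, was at 31.4, 28.5, 20.2 and 21.5 CPM in DNMT1 KO and at 0 to 0.0565 CPM (median 0.00712) in HCT116, a log2 fold change of 9.99 ± 0.56 SE (10.62 without HCT116 replicate 9). This was the highest fitted value among members with more than 3 HCT116 counts.

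APOE, the lipid-carrying apolipoprotein, was at 49.7, 39.8, 45.6 and 22.4 CPM in DNMT1 KO and at 0.321 to 1.04 CPM (median 0.377) in HCT116 (log2 fold change 6.17 ± 0.40 SE). APOC1, another apolipoprotein whose gene starts 4.85 kb beyond the end of APOE on chromosome 19, was at 6.25, 9.01, 5.78 and 6.48 CPM and at 0.0526 to 0.13 CPM (median 0.096) (log2 fold change 5.96 ± 0.37 SE). DNMT1 KO replicate 4 was the lowest library for APOE but not for APOC1. PLA2G3, a secreted phospholipase, was at 25.2, 30.0, 5.87 and 26.7 CPM in DNMT1 KO, with replicate 3 well below the other three. NXPH3, a ligand of neurexins, was at 16.1, 16.2, 13.4 and 10.7 CPM and at 0.105 to 0.282 CPM (median 0.18) in HCT116. The cytokine THPO, which drives platelet formation, was at 12.3, 15.2, 12.2 and 11.9 CPM in DNMT1 KO and at 0.0263 to 0.221 CPM (median 0.129) in HCT116. Of the remaining members of this group, the hormone STC1 was at 8.23, 9.85, 8.15 and 6.55 CPM in DNMT1 KO, and EGFLAM, SRGN, ANGPTL2, CSN3 and KLK2 were each under 7 CPM in every DNMT1 KO library. Fibroblast markers (8) summed to 5.93 to 19.5 CPM in HCT116 and 17.7 to 24.4 CPM in DNMT1 KO. Only COL1A1 had a lower mean in DNMT1 KO (11.9 CPM in HCT116 and 7.43 in DNMT1 KO), with ranges that overlapped. COL3A1 (0.0221 and 5.22), PDGFRB (0.281 and 5.20) and LUM (0.0047 and 2.61) had higher means in DNMT1 KO, with ranges that did not overlap. So did PDGFRA (0.0095 and 0.115) and DCN (0 and 0.12). COL1A2 (0 and 0.071) and THY1 (0.0341 and 0.0749) had higher means with ranges that overlapped. The part of these markers in the levels of the group was not tested.

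The 13 genes of neuronal and synaptic proteins were led by STMN2, a regulator of microtubules in growing axons. STMN2 was at 69.6, 69.4, 50.0 and 42.5 CPM in DNMT1 KO and at 0 to 0.114 CPM (median 0.034) in HCT116, a log2 fold change of 9.95 ± 0.51 SE. With batch as a term in batches 1 and 2 it was 11.47, on 2 HCT116 counts. NRXN2, a presynaptic adhesion receptor, was at 45.8, 42.2, 35.8 and 42.5 CPM in DNMT1 KO and, with a count in every HCT116 library, at 0.221 to 0.736 CPM (median 0.66) there (log2 fold change 5.94 ± 0.34 SE). NRXN2 varied little among DNMT1 KO libraries (coefficient of variation 10.1%). NEFH, the heavy neurofilament subunit, was at 17.3, 30.2, 17.4 and 24.6 CPM in DNMT1 KO and at 0 to 0.186 CPM (median 0.0499) in HCT116. NSG1, an endosomal protein of neurons, was at 4.68, 4.28, 5.01 and 5.51 CPM and at 0 to 0.0855 CPM (median 0.0496). The other 9 genes of the group (STXBP6, SVOP, SDK2, JPH4, VAT1L, RPH3A, ATP2B2, LRRTM4 and LRRTM3) were between 1.24 and 68.1 CPM in single DNMT1 KO libraries. Among them, the postsynaptic adhesion protein LRRTM3 had 2 counts over the HCT116 libraries. Summed over 7 neuron markers, STMN2 among them, the level was 69.3 to 240 CPM in HCT116 and 67.9 to 199 in DNMT1 KO, and these sums overlapped. Single markers did not all overlap. SYT1 was at 56.6 to 199.7 CPM in HCT116 and 2.88 to 16.6 in DNMT1 KO, and RBFOX3 at 0.0217 to 0.628 and 0.824 to 1.65. GAP43 did overlap, at 0 in HCT116 and 0 to 0.108 CPM in DNMT1 KO. So did MAP2 (means of 15.2 CPM in HCT116 and 60.2 in DNMT1 KO), TUBB3 (3.62 and 4.62) and SNAP25 (0.371 and 0.844). Of the 7 markers only SYT1 had a lower mean in DNMT1 KO.

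Guidance and signalling proteins made up 12 genes. RAB34, a small GTPase of cilium formation, was at 229, 189, 135 and 214 CPM in DNMT1 KO and at 0 to 0.64 CPM (median 0.412) in HCT116 (log2 fold change 8.75 ± 0.69 SE). With batch as a term in batches 1 and 2 the log2 fold change was 10.95, and batch 4, which that fit leaves out, holds most of its HCT116 counts. GNAT3, the G protein alpha subunit of taste receptor cells, was at 25.7, 31.5, 19.7 and 20.6 CPM in DNMT1 KO, and its 2 counts in HCT116 were both in replicate 8. The ratio of its pooled levels was 4407 (95% interval 1219 to 36405), an interval that covers counting error only. GNAT3 lies inside the span of CD36 on the opposite strand, with no exon bases shared, and CD36 was at 147 CPM in DNMT1 KO and 0.0296 in HCT116. The counting named no strand option, so reads of CD36 transcripts over GNAT3 exons and reads of GNAT3 cannot be told apart.

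EFNB3, a membrane-bound ligand of Eph receptors, was at 10.7, 13.4, 9.29 and 3.41 CPM in DNMT1 KO and at 0 to 0.198 CPM (median 0.0682) in HCT116. ROBO1, the receptor of Slit guidance cues, was at 1.07, 1.67, 1.9 and 1.01 CPM and had 4 HCT116 counts in all. RGS4, an inhibitor of G protein signalling, was at 28.1, 31.6, 29.7 and 18.2 CPM in DNMT1 KO, and DLC1 at 7.88, 9.58, 22 and 14.6. These 4 genes thus spanned an order of magnitude or more in level while each stayed near 0 in HCT116. The other members of the group were ALPK2, RASL10B, RERG, DLK1, NPR1 and GIPC3, at 1.39 to 21.6 CPM in single DNMT1 KO libraries.

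The 8 genes of immune cell and interferon-linked proteins held the gene with the highest level per kilobase of all. BST2 (tetherin), which holds budding virus particles at the cell surface, was at 203, 294, 248 and 226 CPM in DNMT1 KO, which is a mean of 220.3 CPM per kilobase. In HCT116 it was at 0.692 to 7.78 CPM (median 2.54), with counts in every library (log2 fold change 6.12 ± 0.57 SE, and 5.49 with the batch term). PARP10, an ADP-ribosyltransferase, was at 42.1, 42.4, 122 and 25.4 CPM in DNMT1 KO and at 0.328 to 1.95 CPM (median 1.04) in HCT116 (log2 fold change 5.60 ± 0.52 SE), and DNMT1 KO replicate 3 stood above the others (4.99 without it). IL7R, the interleukin 7 receptor of lymphocytes, was at 4.17, 4.09, 2.01 and 9.06 CPM in DNMT1 KO and at 0 to 0.247 CPM (median 0.057) in HCT116. SPN (CD43), a leukocyte surface sialoprotein, was at 2.19, 3.58, 4.47 and 1.31 CPM and at 0 to 0.0866 CPM (median 0.0545), and SLFN12 at 2.91, 3.47, 3.98 and 3.71 and 0 to 0.116 CPM (median 0.0247). CD5, LSP1 and LYVE1 were at 1.69 to 19.4 CPM in single DNMT1 KO libraries. The leukocyte marker PTPRC was at 0 to 0.0359 CPM in DNMT1 KO. Of the 6 leukocyte markers, PTPRC, CD3E, CD14, CD68 and LYZ were at most at 0.273 CPM in any DNMT1 KO library and at most at 0.316 CPM in any HCT116 library. Endothelial markers (5, PECAM1 and VWF among them) summed to 0.314 to 1.69 CPM in HCT116 and 4.89 to 6.52 in DNMT1 KO. Each had a higher mean in DNMT1 KO. The ranges overlapped for KDR (0.057 to 0.866 CPM in HCT116 and 0.225 to 2.37 in DNMT1 KO) and TEK (0 to 0.173 and 0 to 0.16). The part of these markers in the levels of the group was not tested.

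Transcription factors and nucleic acid binding proteins gave 8 genes. CTCFL (BORIS), a testis paralogue of the insulator protein CTCF, was at 19.3, 15.1, 20.5 and 17.3 CPM in DNMT1 KO and at 0 to 0.302 CPM (median 0.0833) in HCT116 (log2 fold change 6.88 ± 0.65 SE, and 9.68 with the batch term, on 2 HCT116 counts). It was the only member found in a list of 64 germline and meiosis genes. DLX3, a homeobox factor of skin and bone, was at 7.32, 11.1, 7.57 and 5.69 CPM and at 0.0433 to 0.21 CPM (median 0.159), and PAX5, the B cell factor, at 2.73, 2.02, 5.1 and 1.27 and 0 to 0.0698 CPM (median 0). PAX5 was highest in DNMT1 KO replicate 3. PROX1, the homeobox factor of lymphatic vessels, had no HCT116 count and was at 1.55, 1.75, 1.33 and 2.28 CPM in DNMT1 KO. The antisense gene PROX1-AS1 shares 171 exon bases with PROX1 and was called higher too, so reads of the pair cannot be told apart in those bases. The others were CELF2, CSDC2, EVX1 and TRPS1.

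Of the 8 enzymes, DHRS2 (HEP27), a mitochondrial short-chain dehydrogenase, had the highest library share of all members. It was at 1297, 1972, 1868 and 1396 CPM in DNMT1 KO. In HCT116 it was at 1.84 to 14.5 CPM (median 8.95), the highest HCT116 level among the 79, so its log2 fold change of 7.43 ± 0.56 SE started from a measurable level. With the batch term it was 8.35. ALPL, the tissue-nonspecific alkaline phosphatase of mineralising bone, was at 72.5, 75.6, 35 and 48.8 CPM in DNMT1 KO and at 0.105 to 0.477 CPM (median 0.241) in HCT116 (log2 fold change 7.52 ± 0.39 SE, and 8.15 with the batch term). ALDH1L1, a folate enzyme, was at 6.84, 8.1, 9.51 and 4.83 CPM and at 0 to 0.316 CPM (median 0.0449). SELENBP1, a selenium-binding methanethiol oxidase, had 2 HCT116 counts and was at 13.1, 23.9, 10.7 and 4.49 CPM in DNMT1 KO, a wide spread. PHYHD1, QPRT, STEAP1B and QPCT were at 5.35 to 32.7 CPM in single DNMT1 KO libraries.

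The remaining groups were small. Of 4 transporter and junction genes, GJA1 (connexin 43), a gap junction subunit, was at 21.1, 15.5, 17.1 and 13.1 CPM in DNMT1 KO with 10 HCT116 counts in all. The citrate and succinate carrier SLC13A3 was at 9.06, 8.0, 12.5 and 5.62 CPM and the phospholipid exporter ABCB4 at 6.07, 9.15, 6.03 and 3.37, the latter with no HCT116 count. ABCA8 was the fourth. Of 5 muscle and cytoskeletal genes, MYBPH, a relative of cardiac myosin-binding protein C, was at 17.7, 22.1, 1.65 and 44.9 CPM, and the fast troponin I gene TNNI2 at 6.57, 5.69, 1.13 and 3.3. Both were lowest in DNMT1 KO replicate 3. ESPNL, HSPB7 and TXLNB completed the group. Among 8 other proteins, CCDC106 was at 47, 42.7, 30.2 and 44.1 CPM in DNMT1 KO and at 0.113 to 0.996 CPM (median 0.583) in HCT116 (log2 fold change 5.92 ± 0.41 SE), PRCD was at 27.2 to 38.5 CPM in DNMT1 KO, and RCN3, TMEM119, SMIM24 and NINJ2 were below 7 CPM in every library. CCDC8 and IZUMO3, a member of a sperm protein family, had no HCT116 count.

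**Figure D2:**
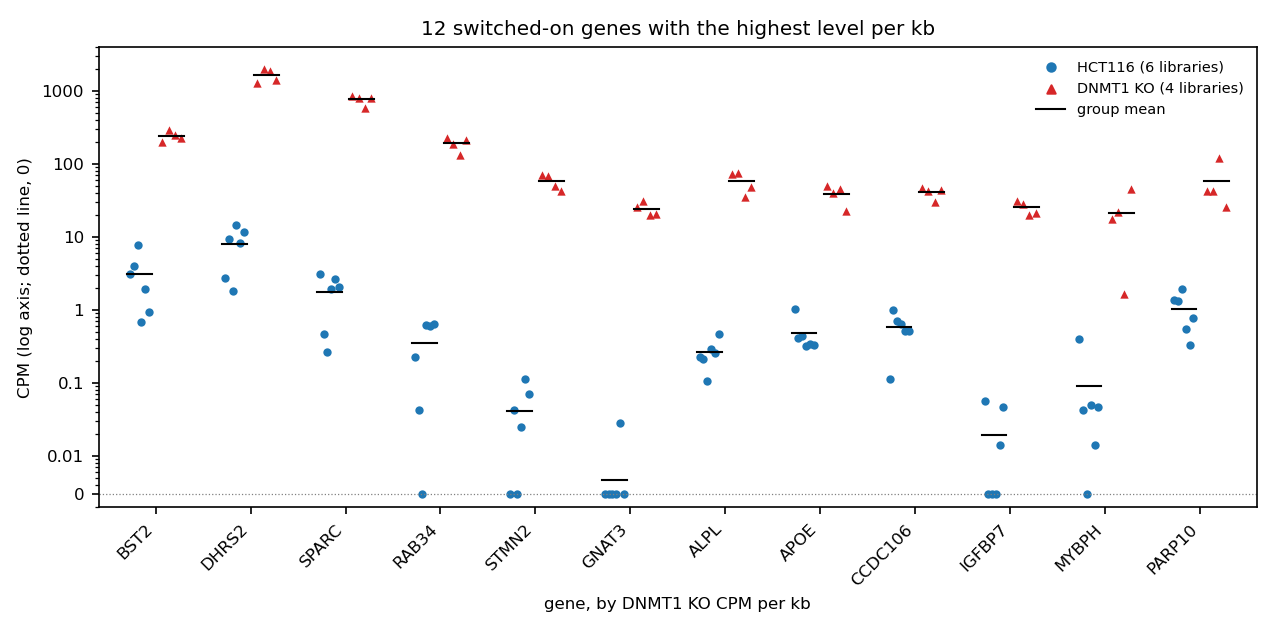
CPM of the 12 genes with the highest DNMT1 KO level per kilobase in each library, on a log axis on which the dotted line stands for 0. Circles are HCT116 libraries, triangles DNMT1 KO libraries and bars group means. MYBPH and PARP10 show a DNMT1 KO library, replicate 3, far from the others. The rule had used these levels, so nothing is read from the gap between circles and triangles.

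For the 7 genes with no HCT116 count only a lower bound of the change can be given, set by a floor of 3 counts over all HCT116 libraries. Against it, ABCB4 was at least 779.9-fold higher in DNMT1 KO, ANGPTL2 at least 544-fold, CCDC8 at least 492-fold and IZUMO3 at least 431-fold. CSN3, the milk protein kappa casein, was at least 332-fold higher, KLK2, a prostate kallikrein, at least 206-fold and PROX1 at least 197-fold. In DNMT1 KO the 4 values of CSN3 were 2.57, 3.58, 1.67 and 3.93 CPM and those of IZUMO3 2.08, 3.6, 4.49 and 4.04. Those of CCDC8 were 4.38, 4.59, 3.7 and 3.86 CPM and those of ANGPTL2 4.46, 6.83, 3.32 and 3.03. KLK2 was at 1.82, 1.65, 1.87 and 1.5 CPM. These genes were low but present in every DNMT1 KO library. The bounds treat each count as an independent read.

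At the limits of the rule the genes ran on smoothly. EVX1 (HCT116 mean 1.96% of the DNMT1 KO mean), RPH3A (1.96%) and SDK2 (1.93%) were just inside the 2% limit, and ASB4 (2.06%), FCGRT (2.08%) and NR5A2 (2.18%) just outside. The lowest DNMT1 KO library held 1.01 CPM of ROBO1, 1.09 of ABCA8 and 1.12 of TRPS1, the members nearest the minimum, and 0.987 of CDH7, 0.974 of RBPJL and 0.969 of MANSC4, the nearest genes below it. A further 829 coding autosomal genes met the 2% limit but were under 1 CPM in a DNMT1 KO library. The 79 genes are thus the better-expressed end of a longer run of genes.

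The 79 genes varied more among DNMT1 KO libraries than the coding autosomal genes at 1 CPM or more in every DNMT1 KO library. Their median coefficient of variation was 27.9%, against 22.5%. The highest library exceeded the lowest by more than 3-fold in 19 members (24.1%), against 8.28% of those genes, whose levels per kilobase were higher. The part of the level in this spread was not tested. The most even member was STEAP1B, with a coefficient of variation of 9.47%, and the most uneven was MYBPH, with 82.7%. MYBPH had 662, 1136, 92 and 1198 counts in replicates 1 to 4, so replicate 3 stood below the rest although it was the deepest of the 4. Replicate 2, which shares its batch, was among the higher ones.

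Within that batch, replicates 2 and 3 differed by more than 3-fold in 7 members. MYBPH, PLA2G3, TNNI2, LSP1, LYVE1 and EVX1 were lower in replicate 3, and STXBP6 was higher. LSP1, an actin-binding protein of leukocytes, was at 19.4, 14.7, 3.19 and 9.85 CPM in replicates 1 to 4, and its neighbour TNNI2, 11.3 kb away, at 6.57, 5.69, 1.13 and 3.3, so this pair had the same order of libraries. LYVE1, the hyaluronan receptor of lymphatic vessels, was at 7.59, 8.35, 1.69 and 4.94 CPM. In contrast, STXBP6, a binder of SNARE proteins, was at 34.2, 21.5, 68.1 and 22.4 CPM, and DLK1, a Notch-related growth regulator, at 3.58, 3.13, 7.0 and 1.95. Replicate 3 was the lowest of the 4 libraries for 30 members (38.0%) and replicate 4 for 33 (41.8%), whereas among the coding autosomal genes at 1 CPM or more they were lowest for 26.4% and 28.1%. Replicate 3 was the highest for 20 members (25.3%), against 43.6% of those genes.

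**Figure D3:**
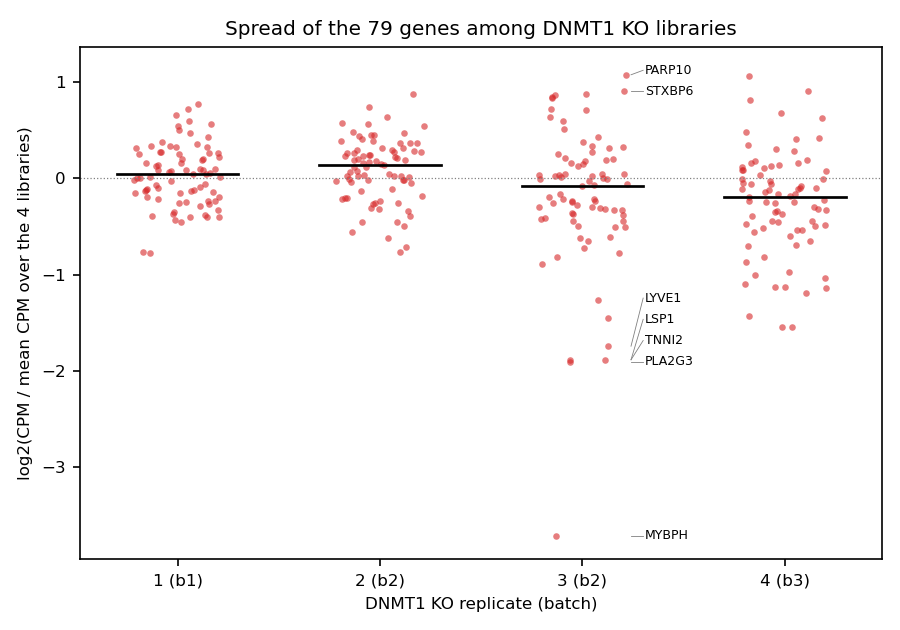
Level of each of the 79 genes in each DNMT1 KO library relative to its mean over the 4, as log2 (points), with the median of each library (bars). Most points lie within 1 unit of the mean, and MYBPH, PLA2G3, TNNI2, LSP1 and LYVE1 lie far below it in replicate 3.

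The HCT116 libraries of batch 4 were compared with those of batches 1 and 2 to describe how the members' low levels moved with batch. The rule used these libraries through their mean, which limits how far a member can differ between batches. The calls are therefore given as a description. The summed level of the members was 17.3, 22 and 18.2 CPM in batches 1 and 2 and 24.6, 19.6 and 22.5 CPM in batch 4. Only 14 members had enough HCT116 counts to be tested. Of these, BST2 was called lower in batch 4, where 4.94% of 18656 tested genes were, and 0 were called higher, where 3.09% were (8.03% in either direction). With an unadjusted p under 0.05 in the edgeR test there were 5 in either direction, where 26.1% of all tested genes were. DESeq2 called 3 members (BST2, PARP10 and RAB34), where it called 13.2% of all tested genes. BST2 was at 3.11, 4.03 and 7.78 CPM in replicates 1 to 3 and at 0.692, 1.97 and 0.930 CPM in replicates 7 to 9, so the batches did not overlap (log2 difference -2.04, SE 0.50, edgeR adjusted p = 0.0251). The call was lost without HCT116 replicate 2, 3, 7 or 9. RAB34 was at 0.226, 0.0433 and 0 CPM in replicates 1 to 3 and at 0.630, 0.598 and 0.640 CPM in replicates 7 to 9 (log2 difference 2.81, SE 0.85, edgeR adjusted p = 0.0553), which did not pass in edgeR.

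NEFH, IL7R and RPH3A, a Rab3 effector of synaptic vesicles, had no count in HCT116 batches 1 and 2 and a count in each library of batch 4. NEFH was at 0.161, 0.0997 and 0.186 CPM in batch 4, IL7R at 0.247, 0.114 and 0.116, and RPH3A at 0.124, 0.0855 and 0.267. No member showed the reverse. The batch 4 libraries were the deepest, and the part of depth in this was not tested. No batch mean could reach the DNMT1 KO mean, because the rule bounds the mean of the HCT116 libraries. Within batch 1 alone, 64 of the 79 genes met the 2% limit, and within batch 2 alone 70 did. The rule had used these libraries, and nothing is read from these counts.

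The 79 genes lay on 19 of the 22 autosomes, with none on chromosomes 13, 15 and 21. Chromosomes 17 and 19 held 9 each (11.4%), against 6.24% and 7.75% of coding autosomal genes. Members had a median of 12 coding genes within 500 kb, as had all coding autosomal genes, and a median span of 25.9 kb, against 27.5 kb. Of the 79, 16 formed 8 pairs closer than 500 kb. The closest were APOE and APOC1 (4.85 kb), SPN and QPRT on chromosome 16 (8.13 kb), TNNI2 and LSP1 on chromosome 11 (11.3 kb) and JPH4 and DHRS2 on chromosome 14 (51.3 kb), none with a coding gene between them. The others were SMIM24 and GIPC3 (105 kb), SLFN12 and RASL10B (298 kb), TMEM119 and SVOP (309 kb) and NXPH3 and DLX3 (406 kb), with 4 to 6 coding genes between, of which 2 to 5 were tested and none of those tested was called higher. JPH4, a junctional membrane protein of neurons, was at 11.1, 10.9, 6.08 and 9.29 CPM in DNMT1 KO, far below DHRS2 beside it. QPRT, an enzyme of NAD synthesis, was at 11.8, 12.2, 11.4 and 9.06 CPM, above SPN beside it.

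The genes next to the members held a higher share of calls than genes at large, a difference given with no test. Taking the nearest tested gene on each side that was not a member gave 151 genes, of which 30 (19.9%) were called higher, where 7.42% of all tested genes were. Only 5 (3.31%) were called lower, where 6.49% were, and the median log2 fold change was 0.15. Among all 303 tested genes within 100 kb, 48 (15.8%) were called higher. Of the 30, 21 were coding genes and 8 long non-coding RNAs, and 1 (OAS1) had been left out of the members by name. With no HCT116 count, 7 of the 30 passed the low-count filter only through their DNMT1 KO counts. Of the coding autosomal genes tested, 7.78% were called higher.

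The 6 neighbours with the highest fitted changes, 2 of which have no symbol, had no HCT116 count. Against the floor of 3 counts, LINC02775, 9.69 kb from PROX1, was at least 237-fold higher, at 2.32, 2.75, 1.26 and 1.61 CPM in DNMT1 KO. ODAM, an enamel protein gene 38.0 kb from CSN3, was at least 107-fold higher. TNNT3, the fast troponin T gene, 27.4 kb beyond LSP1, was at least 73.6-fold higher. TNNI2 and LSP1, in the same stretch of chromosome 11, are members chosen by the rule. PNMA8C, 11.0 kb from CCDC8, was at least 62.5-fold higher. ODAM, TNNT3 and PNMA8C were below 1 CPM in at least 1 DNMT1 KO library, and LINC02775, above 1 CPM in each, is not a coding gene.

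Outside the rule for naming genes, some neighbours were chosen after their values were seen. SMR3B stands on the other side of CSN3 (118.7 kb), RTL1 beside DLK1 in an imprinted region (141.5 kb; log2 fold change 6.38, SE 0.81, edgeR adjusted p = 5.516e-05), HOTTIP beside EVX1 (35.4 kb; 5.52, SE 0.58, adjusted p = 9.416e-06) and BISPR 0.055 kb from BST2 (2.94, SE 0.55, adjusted p = 0.00164). FCGRT, just outside the 2% limit, lies 1.67 kb from RCN3.

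**Figure D4:**
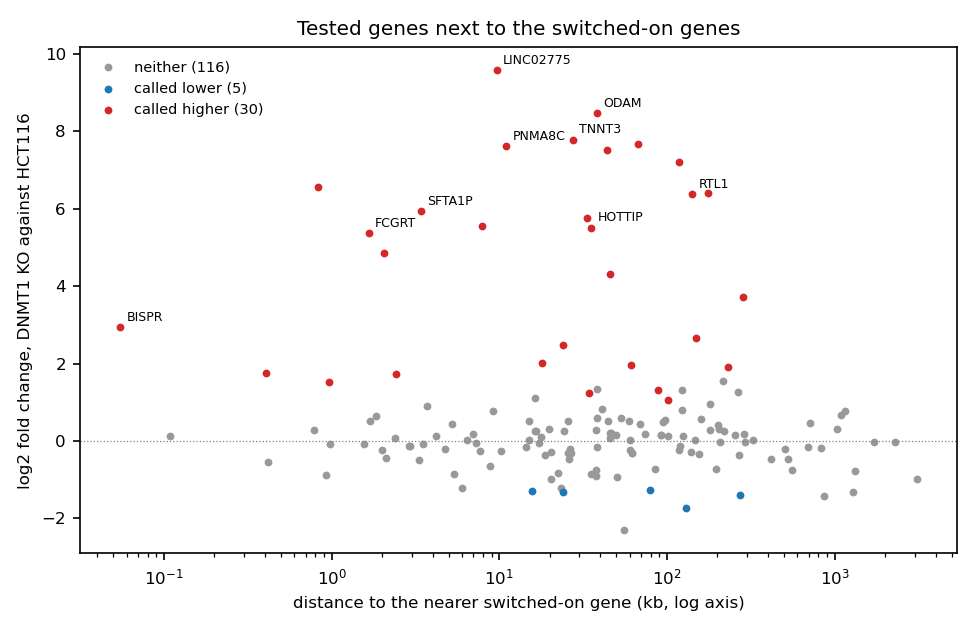
Log2 fold change in DNMT1 KO against HCT116 of the 151 tested genes next to the members, against the distance to the nearer member in kb on a log axis. Red points (30) were called higher and blue points (5) lower, and the red points lie at distances from 0.055 to 284 kb.

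Some reads could come from other genes at the same place. Of the 79 genes, 50 overlapped the span of another counted gene and 29 shared exon bases with one, 20 of them on the opposite strand. Only 4 shared exon bases with a gene called higher. These were PROX1, IGFBP7 (94 bases with IGFBP7-AS1), NINJ2 (554 bases with NINJ2-AS1, which was at 5.16 CPM in DNMT1 KO) and PRCD (248 bases with CYGB). IGFBP7 also shared 260 bases with POLR2B, which was at 167 CPM in HCT116 and 228 in DNMT1 KO, while IGFBP7 was near 0 in HCT116. With no strand setting named for the counting, the members of such pairs are uncertain in the shared bases.

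The promoters of the members were less often CpG-rich than promoters at large. A window was called CpG-rich with over 50% G and C and a ratio of observed to expected CpG above 0.6. This held for 30 of the 79 (38.0%), for 66.1% of all 18961 coding autosomal genes and for 62.6% of the 920 other coding autosomal genes called higher in DNMT1 KO. Among the 7736 coding autosomal genes with a mean under 1 CPM in HCT116, from which most members come, it held for 35.7%. No test of these differences was made. The median number of CpG was 13 in members, 8 in genes low in HCT116, 23 in the others called higher and 23 in all. At most 5 CpG were found in 22 members (27.8%), against 18.2% of all promoters and 39.5% of those of genes low in HCT116. Under a stricter call (over 55% and 0.75) the members' share was 21.5%, against 50.8% of all, 24.1% of genes low in HCT116 and 44.7% of the others called higher.

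**Figure D5:**
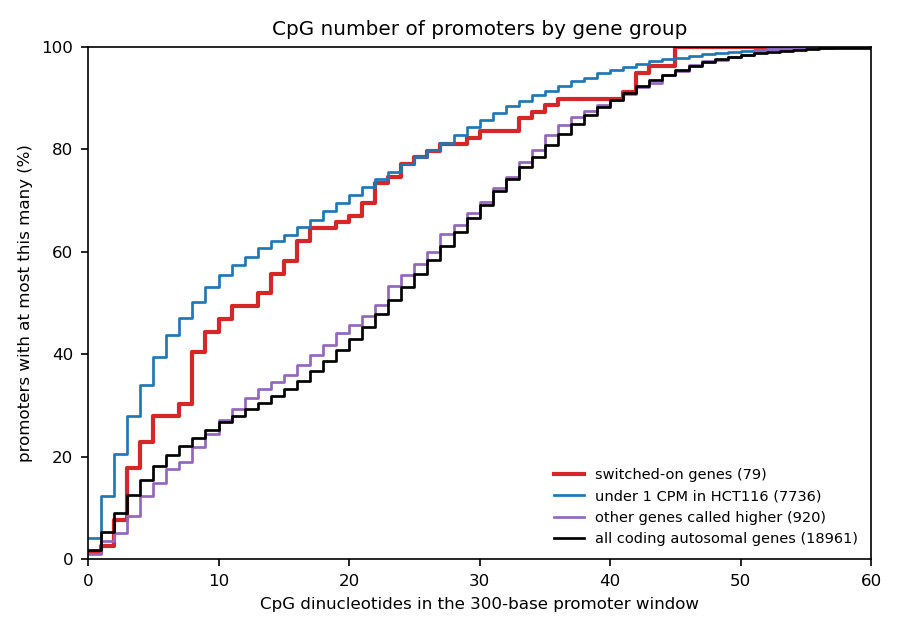
Share of promoters with at most a given number of CpG in the 300-base window, for the 79 members, coding autosomal genes under 1 CPM in HCT116, other coding autosomal genes called higher and all coding autosomal genes. From 3 to 40 CpG the line of the members runs above those of all genes and of the other genes called higher, and at 5 CpG it is at 27.8%, below the 39.5% of genes low in HCT116.

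By role, 8 of the 13 neuronal and synaptic genes had a CpG-rich promoter, and 5 of the 8 transcription factor and nucleic acid binding genes. Of the 13 secreted and matrix genes 3 did, and none of the 8 immune cell and interferon-linked genes or the 5 muscle and cytoskeletal genes. The level did not separate the kinds. The median DNMT1 KO level was 1.56 CPM per kilobase in the 30 CpG-rich members and 1.79 in the other 49. Of the 3 members with the highest levels per kilobase, BST2 had 2 CpG in the window, DHRS2 had 3 and SPARC 11, whereas RAB34, the fourth, had 22 and was CpG-rich. The genes with no HCT116 count included 2 CpG-rich members and 5 others.

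Short motifs were searched on both strands of the 300-base windows. TATAAA, the core of the TATA box, was in 14 members (17.7%), ALPL, GNAT3, IL7R, NEFH and PROX1 among them, and in 9.70% of all promoters. CACGTG (E-box) was in 2 (2.53%; NINJ2 and TXLNB), against 8.71%, and TGACGTCA (cAMP response element), which like it holds a CpG, in 1 (CSDC2), against 2.72%. The palindromic NRF1 motif was in 0 members, against 1.72%. Paired GAAA runs separated by any 2 bases, a form bound by interferon regulatory factors, were in 4 (5.06%; BST2, PARP10, STMN2 and LRRTM4), against 3.28%. In the BST2 promoter shown above, they began 124 and 130 bases before the start, in matches that overlap. A match is a run of letters and was not tested as a site.

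Lists of genes with related roles show how far the members stood for their kind. These counts leave the members out and are read against the 7.42% called higher and 6.49% called lower among all tested genes. Of 30 tested genes of antigen presentation and interferon response 12 were higher and 1 lower in DNMT1 KO, with a median log2 fold change of 1.22. Of 47 tested matrix, adhesion and mesenchymal genes, 16 were higher and 10 lower. Of 32 neuronal and synaptic genes, 8 were higher and 8 lower, and of 16 germline and meiosis genes 3 were higher and 0 lower. Genes known as methylated in colorectal cancer gave 7 higher and 6 lower of 26. Of 98 ion channels, 18 were higher and 13 lower, of 89 GPCRs 15 and 15, of 158 transcription factors 18 and 18, of 137 cytokines, growth factors and receptors 16 and 16, of 254 solute carriers 20 and 17, and of 82 metabolic and detoxifying enzymes 12 and 8. Of 20 genes of the DNA methylation machinery, 1 was higher and 1 lower. The medians of these lists other than that of interferon response lay between -0.11 and 0.30.

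The markers of the line itself were lower in sum in DNMT1 KO. Summed over 14 colon epithelial markers, the level was 2873 to 6573 CPM in HCT116 and 896 to 1708 CPM in DNMT1 KO. KRT8, an epithelial keratin, was at 1571 ± 432 CPM (SD, n = 6) and 282 ± 71.3 CPM (SD, n = 4), EPCAM at 290 ± 67.0 and 79.3 ± 15.8 CPM, and CDH1 (E-cadherin) at 141 ± 118 and 12.7 ± 6.14 CPM. KRT18, KRT19, CLDN4 and CLDN7 also had lower means in DNMT1 KO. The ranges of KRT19 overlapped, at 517 to 1501 CPM in HCT116 and 215 to 781 CPM in DNMT1 KO. The means of CDX2 (28.9 CPM in HCT116 and 39.2 in DNMT1 KO), CLDN3, CDX1, CEACAM5 and LGR5 were higher, with ranges that overlapped. That of VIL1 (0.0082 and 0.664) was higher with ranges that did not overlap. The part of these markers in the levels of the 79 genes was not tested. A scaling by library totals alone moved the median log2 fold change of all genes from -0.07 to 0.14, a shift of 0.21. The rule used library totals, and with TMM-scaled totals 69 of the 79 genes met it.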

How the data were processed

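The authors made stranded, paired-end libraries of poly(A) RNA, trimmed the reads with Trim Galore 0.4.1, aligned to hg38 with bowtie2, an aligner that leaves reads over exon junctions unsplit, kept those with a mapping quality of at least 10 and counted reads in exons with featureCounts. No strand setting is named. As deposited, each library has 1 table of raw, unnormalised counts for every gene. A further 3 tables belonged to no sample of the series and were not used. Some items, among them 1 leukocyte marker and some promoter sequences, are not reported here. CPM is a gene's count over the library's total, and levels per kilobase divide it by the counted exon length of the files.

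The members were found by the rule on CPM, and the members and gene lists were chosen with earlier results of these data known. The whole table was fitted with edgeR 4.0.16 (TMM factors, filterByExpr, quasi-likelihood test, Benjamini-Hochberg adjustment, all HCT116 against all DNMT1 KO libraries, no covariate). The call asked for a log2 fold change beyond 1 together with an adjusted p under 0.05. HCT116 batch 4 was fitted against HCT116 batches 1 and 2 in the same way. DESeq2 1.42.0 was an alternative. The same steps were run on simulated counts, scored by an adjusted p under 0.05 alone, with no limit on the fold change. Of 100 genes changed 4-fold, 71% passed for DNMT1 KO against HCT116 (19279 genes) and 63% for the HCT116 batches (18656 genes). Of 100 changed 2-fold, 9% and 5% passed. Intervals (95%, exact for counts) and floors (3 counts) cover counting error only and treat counts as independent, and they are too narrow if the mates of a pair were counted separately.

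Genes named were the 12 members highest per kilobase in DNMT1 KO, the members with no HCT116 count, up to 4 members per gene list, the genes nearest each limit, members called between HCT116 batches, members in which a library stood apart, pairs within 500 kb, the 6 adjacent genes with the largest changes and DNMT1. Other members were named after their values were seen, as were the role groups. Promoters were read from hg38 at GENCODE release 44 starts because the RefSeq promoter table held 48 of the 79 members. This was decided after the files were seen. Replicate 1 of each group shares batch 1 and replicates 2 and 3 share batch 2, which a batch term covers. Beyond that nothing ties same-numbered replicates.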

Additional observations from a re-analysis of the deposited data

Results flagged for a closer look

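The highest and lowest library of each group was compared with the rest by Dixon's test at the 95% level in 90 sets of values, of which chance flags about 1 in 20, or 4.5 sets. A library stood apart in 3. For THPO, DNMT1 KO replicate 2 held 15.2 CPM, while the other libraries of the group held 11.9 to 12.3. APOE was at 1.04 CPM in HCT116 replicate 1, against 0.321 to 0.447 CPM in the others. NRXN2 was at 0.221 CPM in HCT116 replicate 9, against 0.556 to 0.736 CPM in the others. All 3 genes stayed below their DNMT1 KO range in every HCT116 library, as did all members, whose levels the rule had used.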

How the results depend on the processing

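The number of members followed the limits of the rule. A limit of 1% gave 49 genes and one of 5% gave 121, while a minimum of 0.5 or 2 CPM gave 101 or 55. TMM-scaled totals gave 69, batches 1 and 2 alone 83 (69 of them among the 79), and leaving out 1 library at a time 75 to 87. Leaving out the 6 members that overlap the span of a gene called higher, an alternative chosen after seeing the data, left 73. All 79 members were called higher under every alternative run, which the rule fixes and which is no sign of stability, while 5.58 to 9.74% of all tested genes were. The sizes did move: of 49 named members, 25 changed over 1.5 times with batch as a term in batches 1 and 2, 18 of them upward, with NEFH, IL7R and RPH3A at no HCT116 count in those batches. With the replicate block over replicates 1 to 3, whose deviations correlated by 0.46, -0.20 and 0.37, edgeR called 1232 genes higher and 1235 lower, and 18.5% of adjacent genes. Adjacent genes over 10 kb away were called higher in 17.5% of cases. The HCT116 batch comparison was unstable: it called 1498 genes, 2467 with DESeq2, 2483 with no filter and 234 to 3570 without 1 HCT116 library (234 without replicate 9, 3570 without replicate 1). Members called were 1, 3 with DESeq2, 6 with no filter and 0 to 7 without 1 library. Fewer samples or other tested genes enter these fits, and no other cause was tested. The stricter CpG call gave 21.5% of members in place of 38.0%. Depth limits the HCT116 values: over the 6 libraries 3 counts are 0.00841 CPM, and 29 members had at most 10 counts.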
